A study of Mus musculus with 6 samples.

Results

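Otx2, Pou3f1, Sox3, Zic2, Sall2 and Foxd3, transcription factor genes of the formative and primed epiblast, were followed in J1 ES cells moved from serum medium to 2i medium with vitamin C (2i+vitC). All 6 were lower on average at D6 than at D0, and the drop ran from 80.1-fold for Pou3f1 to 1.57-fold for Foxd3. The rule chose these genes by name. Like the other gene lists below, it was set with earlier results of these data known. It named 7 genes, of which 6 were matched among the 12626 genes measured. The remaining gene, Fgf5, which encodes a growth factor of the epiblast, was not analysed here.

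The cells were J1 WT mouse ES cells, a single ES cell line grown without feeder cells on gelatin. At D0 they were in serum medium with leukemia inhibitory factor (LIF). At D6 and D13 they were in a serum-free medium with LIF, the Gsk3 inhibitor CT-99021, the MEK inhibitor PD0325901 and vitamin C. Each of the 3 days had 2 biological replicates, so 6 samples were compared, and every one of them was WT and received LIF. As serum samples of the later days were not analysed here, the change of medium and the time in culture cannot be told apart.

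Mouse ES cells in serum are known to shift between a naive state, which resembles the inner cell mass before implantation, and a formative or primed state, which resembles the epiblast after it. FGF signalling through MEK and ERK drives cells toward the epiblast state, and 2i medium blocks that signal with the MEK inhibitor while the Gsk3 inhibitor stabilises β-catenin. Otx2 and Pou3f1 (also called Oct6) act early in the exit from naive pluripotency, Sox3, Zic2 and Sall2 belong to families whose other members are active in naive cells as well, and Foxd3 is needed to maintain the epiblast and later the neural crest.

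In the GENCODE vM21 annotation of GRCm38 (mm10), Otx2 (ENSMUSG00000021848.16) lies on the minus strand at chr14:48657677-48673819, Sall2 (ENSMUSG00000049532.11) on the minus strand at chr14:52311172-52328762, and Zic2 (ENSMUSG00000061524.8) on the plus strand at chr14:122475435-122479852, where its nearest coding gene is Zic5, 9758 bases away. Pou3f1 (ENSMUSG00000090125.3) and Foxd3 (ENSMUSG00000067261.4) are on the plus strand of chromosome 4, at chr4:124656807-124660655 and chr4:99656299-99658622, and Sox3 (ENSMUSG00000045179.9) is on the minus strand at chrX:60891366-60893430. All 6 are protein-coding genes. Otx2 overlaps the opposite-strand gene Otx2os1 and the same-strand transcript Gm49154, Pou3f1 overlaps the antisense gene Gm2164, and Foxd3 overlaps the miRNA gene Gm23366. The libraries kept the strand, but whether the counting used it is not given in the sources used here, so reads of Otx2 and Pou3f1 may include reads of their opposite-strand partners.

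RefSeq promoter windows (GRCm38.p6, 250 bases before to 50 after an annotated start) were matched for 3 of the 6 genes, Otx2, Sall2 and Foxd3. Pou3f1, Sox3 and Zic2 were not matched. The windows below are shown because they span the range of base composition at the starts of these 3 genes, all of which fell from D0 to D13. Each is written 5′ to 3′ on the strand of the gene, with capitals marking CG dinucleotides, the sites of DNA methylation. The Foxd3 start has 1 window, at chr4:99656049-99656348 on the plus strand.
Foxd3: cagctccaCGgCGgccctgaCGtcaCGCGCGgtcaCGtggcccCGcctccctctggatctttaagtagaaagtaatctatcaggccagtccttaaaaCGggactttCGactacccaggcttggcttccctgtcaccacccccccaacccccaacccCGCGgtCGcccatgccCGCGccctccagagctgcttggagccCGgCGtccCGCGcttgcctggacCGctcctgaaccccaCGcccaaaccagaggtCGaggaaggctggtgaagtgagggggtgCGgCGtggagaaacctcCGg
Sall2 has 2 windows on the minus strand, an outer one at chr14:52328621-52328920 and an inner one at chr14:52316274-52316573.
Sall2 outer: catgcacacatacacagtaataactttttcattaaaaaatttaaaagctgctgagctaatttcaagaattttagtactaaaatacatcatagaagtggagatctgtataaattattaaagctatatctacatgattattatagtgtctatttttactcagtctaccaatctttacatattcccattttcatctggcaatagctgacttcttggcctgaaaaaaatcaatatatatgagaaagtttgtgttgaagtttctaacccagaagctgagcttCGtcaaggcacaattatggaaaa
Sall2 inner: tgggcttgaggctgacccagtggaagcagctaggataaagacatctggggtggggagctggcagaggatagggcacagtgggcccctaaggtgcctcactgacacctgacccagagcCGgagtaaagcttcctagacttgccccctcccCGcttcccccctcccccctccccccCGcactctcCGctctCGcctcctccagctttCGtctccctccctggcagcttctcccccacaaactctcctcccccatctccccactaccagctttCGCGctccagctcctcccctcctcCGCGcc
Otx2 has 4 windows on the minus strand, of which the one at chr14:48665060-48665359 with the most CG and the one at chr14:48667595-48667894 with the fewest are given.
Otx2 most CG: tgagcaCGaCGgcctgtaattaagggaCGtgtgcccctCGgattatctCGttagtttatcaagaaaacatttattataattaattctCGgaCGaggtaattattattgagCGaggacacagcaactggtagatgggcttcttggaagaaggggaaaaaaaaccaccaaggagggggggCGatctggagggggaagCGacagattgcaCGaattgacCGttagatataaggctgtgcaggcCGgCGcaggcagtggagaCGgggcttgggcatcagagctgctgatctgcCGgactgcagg
Otx2 fewest CG: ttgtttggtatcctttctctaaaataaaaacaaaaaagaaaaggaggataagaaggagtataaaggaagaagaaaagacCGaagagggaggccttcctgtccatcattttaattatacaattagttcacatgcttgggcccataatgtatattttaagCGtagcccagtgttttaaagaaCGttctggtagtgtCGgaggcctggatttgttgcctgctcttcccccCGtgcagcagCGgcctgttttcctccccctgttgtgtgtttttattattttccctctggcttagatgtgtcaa

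The Foxd3 window held 25 CG dinucleotides, and 83.1% of the 32851 promoter windows of all genes held as many or fewer. Over all windows the median was 7, with quartiles of 3 and 20. The inner Sall2 window held 10 CG and the outer window 1, a number that only 14.1% of all windows matched or stayed below. The 4 Otx2 windows held 16, 11, 8 and 6. TATAAA on either strand was found in the outer Sall2 window and in the Otx2 window with the fewest CG, and occurred in 13.6% of all windows. GGCGGG on either strand was found in the Foxd3 window and in the Otx2 window at chr14:48662685-48662984, and occurred in 35.3% of all windows. The windows of these 3 genes range from CG-poor to CG-rich, and the match of a motif is a description of the letters alone.

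The libraries held 73230745 to 83688345 reads on genes, read back from the deposited values, and 3 reads corresponded to 0.0344 to 0.042 CPM depending on the sample. Values are given as CPM, counts scaled to the size of each library by the authors, and changes as log2 differences of CPM. The median spread between replicates over genes was 0.243 (SD on the log2 scale, n = 2) at D0, 0.103 at D6 and 0.268 at D13. Pou5f1, which marks pluripotent cells, was between 705 and 1160 CPM in all 6 samples, and Sox2 between 306 and 562 CPM. "Fell" and "rose" are used below for an adjusted p under 0.05 by limma, with Benjamini-Hochberg adjustment over all 12928 genes and transposon families, and "called" for such a change that was also larger than 4-fold.

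**Figure D1:**
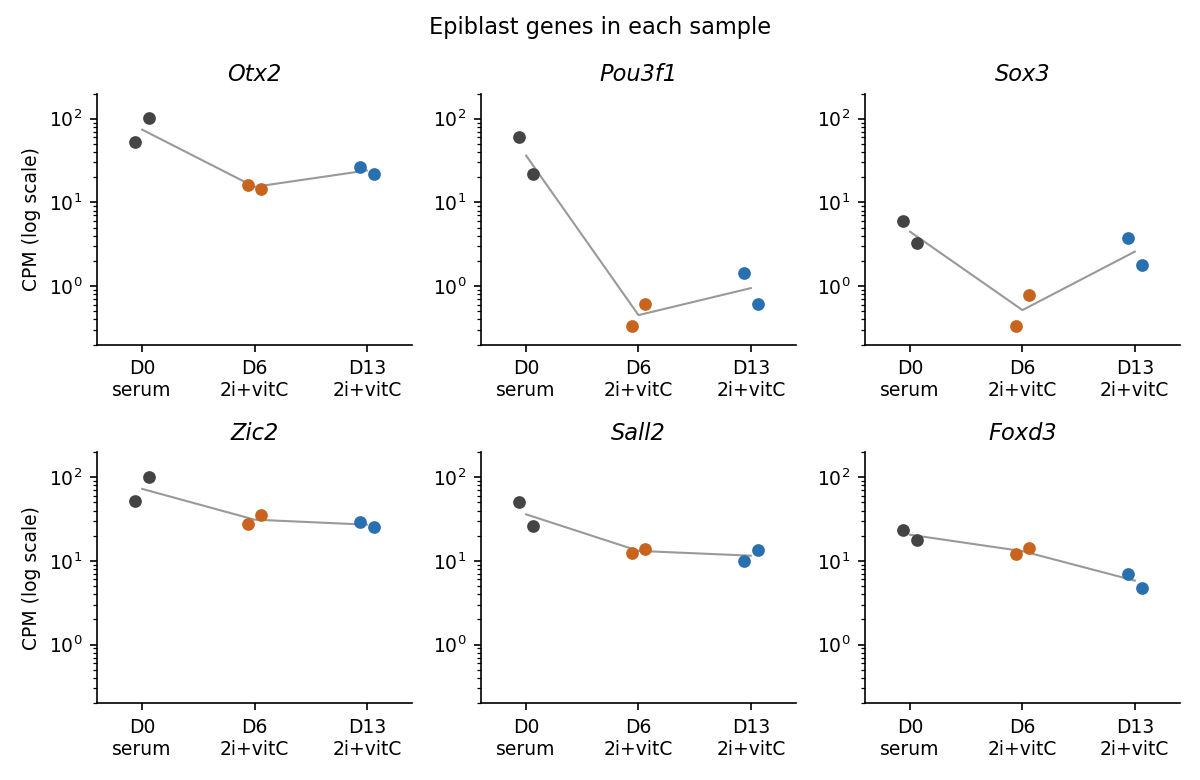
CPM of the 6 epiblast genes (log scale) in each sample, for serum (D0) and 2i+vitC (D6, D13). Each point is a replicate and the line joins the day means. Pou3f1 went from 60.0 and 21.8 CPM at D0 to under 1 CPM at D6, and Foxd3 from 23.6 and 18.0 CPM to 12.0 and 14.3 CPM.

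Otx2 encodes a homeodomain factor that moves with Oct4 to new enhancers when cells leave the naive state. Its level was 53.0 CPM in replicate 1 and 103 CPM in replicate 2 at D0, 16.3 and 14.5 CPM at D6, and 26.4 and 22 CPM at D13. The 3 days did not overlap, with the highest values in serum and the lowest at D6. Otx2 fell 4.8-fold from D0 to D6 (log2 change −2.26, SE 0.32, adjusted p = 0.0013, limma) and was called. From D6 to D13 the log2 difference was 0.65, with a 95% interval from −0.09 to 1.38 (adjusted p = 0.26, limma). Against D0, Otx2 was still 3.07-fold lower at D13 (log2 change −1.62, SE 0.32, adjusted p = 0.0044, limma), short of the 4-fold limit of a call.

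Pou3f1 encodes a POU domain factor of the primed epiblast and of the nervous system. It measured 60.0 and 21.8 CPM at D0, 0.336 and 0.605 CPM at D6, and 1.45 and 0.62 CPM at D13. In reads, these values were 4724 and 1900 at D0 against 26 and 51 at D6 and 103 and 46 at D13. Both serum samples were high, with replicate 1 above replicate 2, and all 4 samples in 2i+vitC were at or below 1.45 CPM. Pou3f1 fell 80.1-fold from D0 to D6 (log2 change −6.32, SE 0.61, adjusted p = 0.00018, limma), and at D13 it was 38.2-fold lower than at D0 (log2 change −5.25, SE 0.61, adjusted p = 0.00029, limma). It was the only member that was called in both comparisons with serum. Between D6 and D13 the difference was 1.07 on the log2 scale, with a 95% interval from −0.32 to 2.46, and the upper D6 value and the lower D13 value differed by only 0.605 against 0.62 CPM.

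Sox3 encodes a SOXB1 factor of the epiblast and of neural progenitors. It had 6.08 and 3.31 CPM at D0, 0.336 and 0.793 CPM at D6, and 3.71 and 1.81 CPM at D13. The D6 samples were the lowest and overlapped with neither other day, while replicate 1 at D13 lay between the D0 replicates. Sox3 fell 8.69-fold from D0 to D6 (log2 change −3.12, SE 0.58, adjusted p = 0.0048, limma) and was called. From D6 to D13 it was 5.01-fold higher, a log2 difference of 2.33 with a 95% interval from 1.01 to 3.64, which missed the threshold (adjusted p = 0.057, limma; 0.025 with a replicate block). At D13 the difference from D0 was −0.79 on the log2 scale, with a 95% interval from −2.11 to 0.52 (adjusted p = 0.3, limma), so a level at D13 different from that in serum was not detected. The D6 level rested on 26 and 67 reads and the D13 level on 265 and 135 reads.

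Zic2 encodes a zinc finger factor that binds enhancers in pluripotent cells and acts in forebrain development. Its level was 52.6 and 100 CPM at D0, 27.7 and 35.1 CPM at D6, and 29.2 and 25.3 CPM at D13. Both D0 samples were above the other 4, and the D6 and D13 samples overlapped. Zic2 fell 2.33-fold from D0 to D6 (log2 change −1.22, SE 0.32, adjusted p = 0.024, limma) and was 2.67-fold lower at D13 than at D0 (log2 change −1.42, adjusted p = 0.0077, limma). The D6 to D13 difference was −0.20 on the log2 scale, with a 95% interval from −0.92 to 0.53.

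Sall2 encodes a spalt-like zinc finger factor. It measured 50.0 and 25.9 CPM at D0, 12.6 and 13.8 CPM at D6, and 9.87 and 13.6 CPM at D13. As for Zic2, both serum samples were the highest and the later days overlapped. Sall2 fell 2.74-fold from D0 to D6 (log2 change −1.45, SE 0.35, adjusted p = 0.016, limma) and was 3.11-fold lower at D13 than at D0 (log2 change −1.63, adjusted p = 0.0058, limma). The D6 to D13 difference was −0.18 on the log2 scale, with a 95% interval from −0.97 to 0.60.

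Foxd3 encodes a forkhead factor. Its level was 23.6 and 18.0 CPM at D0, 12.0 and 14.3 CPM at D6, and 7.06 and 4.78 CPM at D13. The 3 days did not overlap, and the level stepped down at each of them. Neither step passed the test without a block: the difference was −0.65 on the log2 scale from D0 to D6 (95% interval −1.35 to 0.045, adjusted p = 0.17, limma) and −1.18 from D6 to D13 (95% interval −1.87 to −0.48, adjusted p = 0.063, limma; 0.037 with a replicate block). Over the whole interval from D0 to D13, Foxd3 fell 3.55-fold (log2 change −1.83, SE 0.31, adjusted p = 0.0019, limma).

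The spread at D0 was wide for several members, and its direction was not shared among them. Otx2 and Zic2 were higher in D0 replicate 2, with 103 and 100 CPM against 53.0 and 52.6 CPM in replicate 1. Pou3f1, Sox3, Sall2 and Foxd3 were higher in D0 replicate 1. The D0 replicates also differed in other pluripotency genes. The 14 naive genes described below summed to 1390 CPM in D0 replicate 1 and 2630 CPM in D0 replicate 2. The 6 core genes went the other way, with 3820 and 2800 CPM. The SD over the D0 replicates on the log2 scale was 1.03 for Pou3f1, between 0.62 and 0.68 for Otx2, Sox3, Zic2 and Sall2, and 0.28 for Foxd3, all above the median of 0.243 over genes. In bulk RNA, fewer cells in the epiblast state and less RNA per cell cannot be told apart for any of these changes.

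Counted over the members, 3 of the 6 (Otx2, Pou3f1 and Sox3) were lower past 4-fold from D0 to D6, where 3.9% of all genes were. Without a fold limit, 5 of the 6 fell, all but Foxd3, where 10.4% of all genes did. From D0 to D13, only Pou3f1 was called, against 6.01% of all genes, while 5 of the 6 fell at any fold, all but Sox3, against 21.8% of all genes. The median log2 change of the 6 was −1.86 from D0 to D6 and −1.63 from D0 to D13, and that of all genes was −0.014 and −0.0088. From D6 to D13, 0 of the 6 were called by limma in either direction, where 0.697% of all genes were lower and 0.388% higher past 4-fold. The 2 with an unadjusted p under 0.05 in this step were Sox3, upward, and Foxd3, downward (adjusted p = 0.057 and 0.063, limma). The share of all genes at that unadjusted limit was not counted. Limma with voom weights also called 0 members, and limma with a replicate block called 1, Sox3. The median log2 change of the 6 in that step was 0.23.

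**Figure D2:**
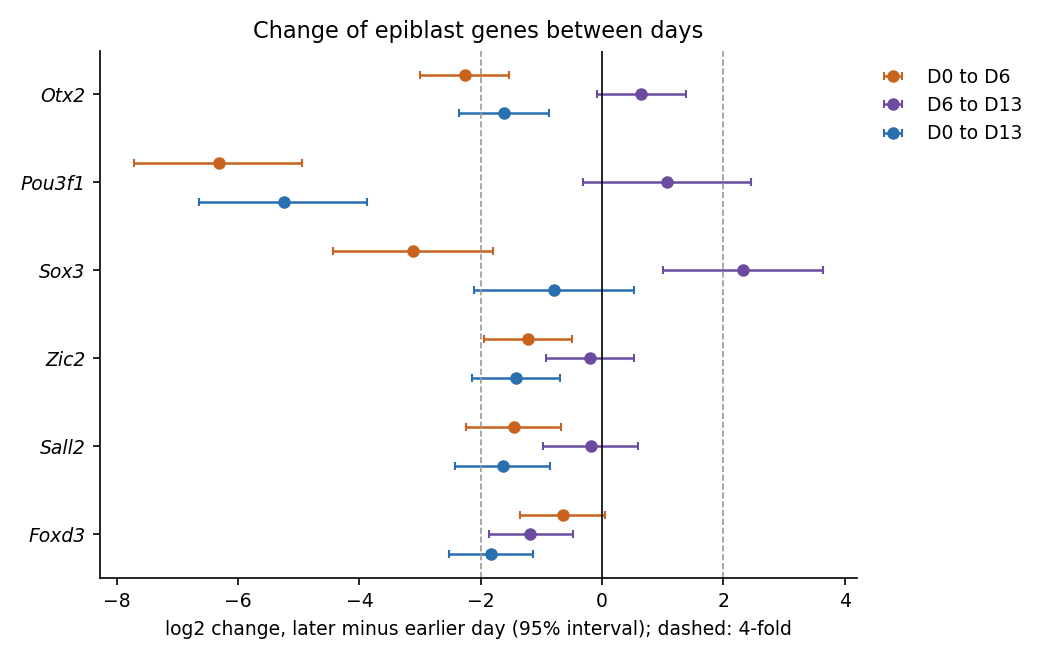
Log2 change of each epiblast gene (horizontal axis, later minus earlier day) for D0 to D6, D6 to D13 and D0 to D13, with 95% intervals from limma and dashed lines at 4-fold. Pou3f1 sits farthest to the left at −6.32 and −5.25, and Sox3 at D6 to D13 is the only point right of the upper dashed line, at 2.33.

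Whether the first step (D0 to D6) and the second (D6 to D13) differed was tested directly, as the first change minus the second. For 3 of the 6 members this contrast was below 0 with adjusted p under 0.05, as it was for 3.34% of all genes. It was −7.39 for Pou3f1 (SE 1.06, adjusted p = 0.0052, limma), −5.44 for Sox3 (SE 1.00, adjusted p = 0.013, limma) and −2.91 for Otx2 (SE 0.56, adjusted p = 0.016, limma). These are the members with a drop followed by a higher mean at D13. Zic2 and Sall2, whose later change was near 0, gave −1.02 and −1.27 with adjusted p = 0.34 and 0.27 (limma). Foxd3 gave 0.52, with a 95% interval from −0.68 to 1.73 that covers equal steps. The calls of Otx2 and Sox3 in this contrast did not survive leaving out D6 replicate 1 (adjusted p = 0.068 and 0.098, limma) or D13 replicate 1 (adjusted p = 0.056 and 0.052, limma), and that of Otx2 did not survive leaving out D6 replicate 2 (adjusted p = 0.098, limma).

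Some of these results changed when a single sample was left out. Without D0 replicate 2, the D0 to D6 change of Otx2 was −1.78, under 4-fold, and without D0 replicate 1 it was −2.74. The drops of Zic2 and Sall2 from D0 to D6 no longer passed the test without D6 replicate 1 (0.15 and 0.076, limma), that of Zic2 also without D0 replicate 2 (0.098, limma) and that of Sall2 without D0 replicate 1 (0.071, limma). The fold of Sall2 and Foxd3 from D0 to D13 crossed 4-fold without D0 replicate 2 (log2 change −2.11 and −2.03), as did that of Otx2 without D0 replicate 1 (−2.10). The 5 drops from D0 to D13 kept an adjusted p under 0.05 whichever sample was left out.

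For levels between genes, CPM was divided by the summed exon length of each gene in kb. At D0 the order of mean CPM per kb was Zic2 (26.5), Otx2 (18.5), Pou3f1 (10.6), Foxd3 (8.95), Sall2 (6.98) and Sox3 (2.27), and among neighbours in this order only Sall2 and Sox3 did not overlap between their replicates. At D6 it was Zic2 (10.9), Foxd3 (5.66), Otx2 (3.65), Sall2 (2.42), Sox3 (0.273) and Pou3f1 (0.122), with no overlap between neighbours. At D13 it was Zic2 (9.45), Otx2 (5.73), Foxd3 (2.55), Sall2 (2.16), Sox3 (1.34) and Pou3f1 (0.269), where Foxd3 and Sall2 overlapped. Zic2 had the highest mean on each day, and Pou3f1 moved from the third place in serum to the last in 2i+vitC. Each of the 6 stayed above the level of 3 reads in every sample.

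The course over the 6 samples was also compared between genes, as the root mean square difference of log2 CPM after each gene was centred on its own mean. Among the members, the closest pair was Otx2 and Zic2 (0.477), followed by Sall2 and Foxd3 (0.547), and the most distant pair was Pou3f1 and Foxd3 (2.37). Over 11221 genes with enough reads, the gene closest to Pou3f1 was Dusp6 (0.608), an ERK phosphatase that ERK signalling induces, with 108 and 75.9 CPM at D0, 1.27 and 2.41 CPM at D6, and 3.1 and 4 CPM at D13. The next were Esrp1 (0.627), a splicing regulator, and Phlda2 (0.767). The genes closest to Sox3 were Aspg (0.452), Amn (0.469) and Prom2 (0.518), and all 3 had their lowest day at D6. Closer neighbours were found for the other members: Capn3 (0.134), Mmel1 (0.157) and Per3 (0.232) for Otx2, Zfp105 (0.133), Lrrc61 (0.146) and Dtx3 (0.147) for Zic2, Prob1 (0.131), Sept6 (0.146) and Serpine2 (0.157) for Sall2, and Bok (0.13), Srrt (0.157) and Ptrh2 (0.163) for Foxd3. With 6 samples, these neighbours are a description.

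The families of the members held genes that moved in opposite directions. Otx1, the paralogue of Otx2, rose 6.32-fold from D0 to D6 (adjusted p = 0.0085, limma) and 10-fold from D0 to D13 (adjusted p = 0.0018, limma), from 0.489 and 0.178 CPM at D0 to 1.62 and 2.14 CPM at D6 and 2.78 and 3.14 CPM at D13. Otx2 moved the opposite way, but per kb of exon its level at D13 (5.73 CPM per kb) was still above that of Otx1 (0.545). Pou3f2, the paralogue of Pou3f1, rose 4.13-fold and 10.6-fold over the same comparisons (adjusted p = 0.024 and 0.0014, limma), from a mean of 0.0802 CPM per kb at D0 to 0.311 at D6 and 0.824 at D13. Pou3f1, higher than Pou3f2 at D0, was below it in every sample at D6 and D13. The level of Pou3f2 in 2i+vitC, 1.47 to 6.01 CPM, remained low.

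In the SOXB1 family, Sox1, a neural progenitor factor, rose 2.35-fold from D0 to D6 (adjusted p = 0.025, limma) and 3.64-fold from D0 to D13 (adjusted p = 0.0023, limma), from 1.92 and 2.08 CPM at D0 to 8.33 and 6.36 CPM at D13. Sox2, the core pluripotency factor, had a difference of −0.33 on the log2 scale from D0 to D6 (adjusted p = 0.32, limma) and fell 1.61-fold from D0 to D13 (adjusted p = 0.031, limma). At 246, 195 and 152 CPM per kb on the 3 days, Sox2 was far above Sox3 and Sox1. Of the 3 genes, Sox3 alone had its lowest mean at D6.

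Zic5, the neighbour of Zic2 on chromosome 14, had means of 4.11, 1.19 and 0.691 CPM per kb on the 3 days, below Zic2 on each of them. Zic5 was 3.3-fold lower from D0 to D6 without passing the test (adjusted p = 0.057, limma) and fell 6.49-fold from D0 to D13 (adjusted p = 0.0055, limma). Among the SALL genes, Sall4, a core pluripotency factor, had a difference of −0.49 on the log2 scale from D0 to D6 (adjusted p = 0.12, limma), and Sall1 fell 2.57-fold from D0 to D13 (adjusted p = 0.0083, limma). Both were more abundant per kb than Sall2 on each day, with 36.9 CPM per kb for Sall4, 29.3 for Sall1 and 2.16 for Sall2 at D13.

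**Figure D3:**
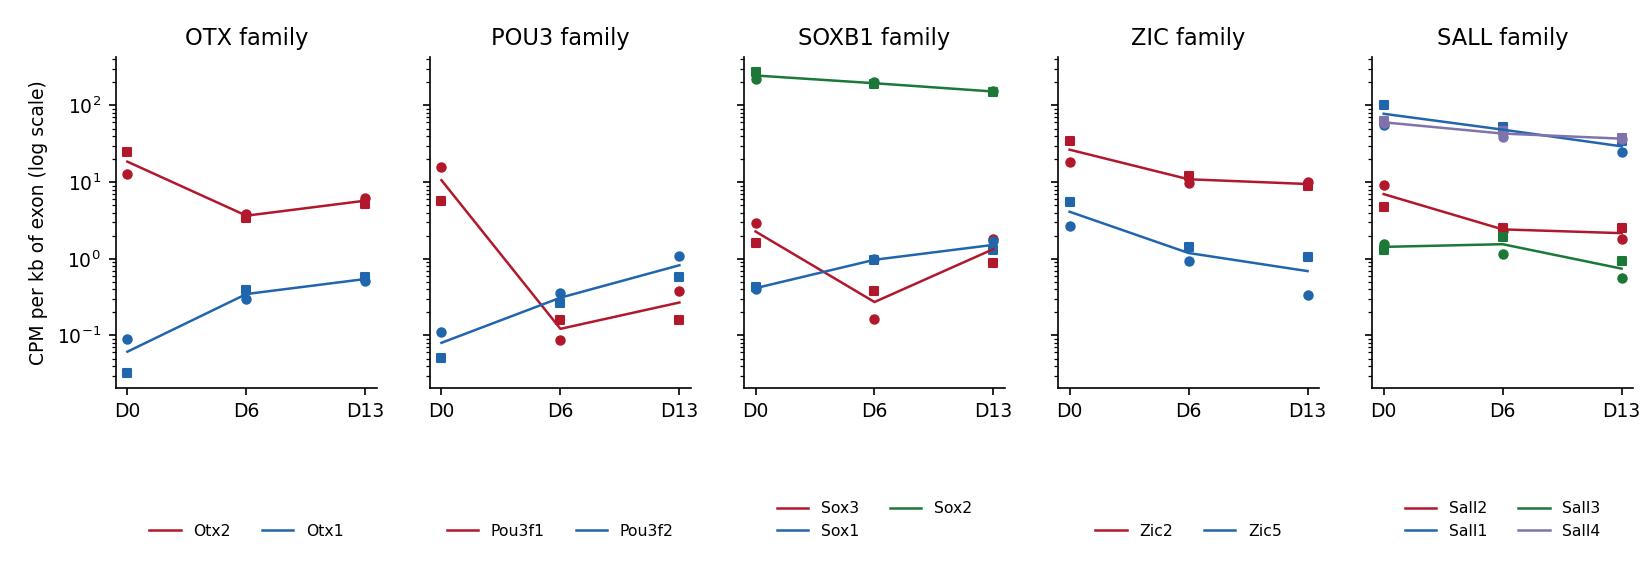
CPM per kb of exon (log scale) at D0, D6 and D13 for the OTX, POU3, SOXB1, ZIC and SALL families. Points are replicates and lines join the day means. Pou3f1 starts at 10.6 and drops below Pou3f2, and Sox3 alone in its panel has its minimum at D6, at 0.273.

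The FGF genes, the family of Fgf5, were measured for 3 other members. Fgf4, the main FGF of naive ES cells, rose 2.13-fold from D0 to D6 (adjusted p = 0.029, limma), and its difference from D0 to D13 was 0.50 on the log2 scale (adjusted p = 0.21, limma). Fgf15, an epiblast and gut hormone FGF, fell 24.7-fold from D0 to D6 (adjusted p = 0.00033, limma), and Fgf17 fell 18.2-fold (adjusted p = 0.0021, limma). Fgf4 was at 98.9 CPM per kb at D6, against 0.256 for Fgf15 and 0.731 for Fgf17. Over 12 paralogues measured of the 20 listed, 2 were higher and 2 lower past 4-fold from D0 to D6, against 5.91% and 3.9% of all genes. From D0 to D13, 2 were higher and 3 lower, against 7.45% and 6.01% of all genes. Fgf15 and Zic5 are also counted among the other epiblast genes below. The 4 called from D0 to D6 became 2 without D0 replicate 2, without D6 replicate 2, or on log2(CPM + 1), and the 5 called from D0 to D13 became 3 on log2(CPM + 1).

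Among the other genes of the formative and primed epiblast, 16 of 21 listed and measured fell from D0 to D6 at any fold and 19 from D0 to D13. Past 4-fold, 13 were lower from D0 to D6 and 15 from D0 to D13, against 3.9% and 6.01% of all genes, and none was higher past 4-fold in either comparison. Their median log2 change was −2.61 and −2.70, against −1.86 and −1.63 for the 6 members and −0.014 and −0.0088 for all genes. Dnmt3b, the de novo DNA methyltransferase of the epiblast, had 891 and 736 CPM at D0 and fell 10.3-fold to 58.6 and 105 CPM at D6 (adjusted p = 0.00016, limma), and Dnmt3a fell 5.32-fold (adjusted p = 0.00026, limma). Lin28a, which blocks let-7 maturation, fell 14.8-fold (adjusted p = 0.00013, limma), Sox11 39.8-fold (adjusted p = 0.00038, limma), Sox4 16.5-fold (adjusted p = 0.00024, limma) and Tcf15, a bHLH factor that primes cells for exit, 15.6-fold (adjusted p = 0.00094, limma). Tdgf1, the Nodal co-receptor, and Tcf7l1, a repressor downstream of β-catenin, had differences of −0.011 and −0.0064 from D0 to D6.

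In the second step, 3 of these 21 genes were lower past 4-fold, Lin28b, Nodal and Cdh2, against 0.697% of all genes. The median log2 change of the 21 in that step was −0.33. Nodal, a growth factor that maintains the primed epiblast, differed by −0.057 from D0 to D6 and then fell 6.16-fold from D6 to D13 (adjusted p = 0.0056, limma). The count of 3 was 0 without D13 replicate 1 and 1 without D6 replicate 2. Cldn6, a tight junction gene, had a course like that of Otx2 and Sox3: it fell 9.63-fold to 11.5 and 8.3 CPM at D6 (adjusted p = 6.4e-05, limma) and rose 2.2-fold to 22.2 and 20.9 CPM at D13 (adjusted p = 0.041, limma). Its first step differed from its second by −4.40 (adjusted p = 0.0015, limma). Lef1, a β-catenin partner, fell 8.31-fold in the first step (adjusted p = 0.002, limma) and had a difference of 1.23 in the second (adjusted p = 0.16, limma).

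**Figure D4:**
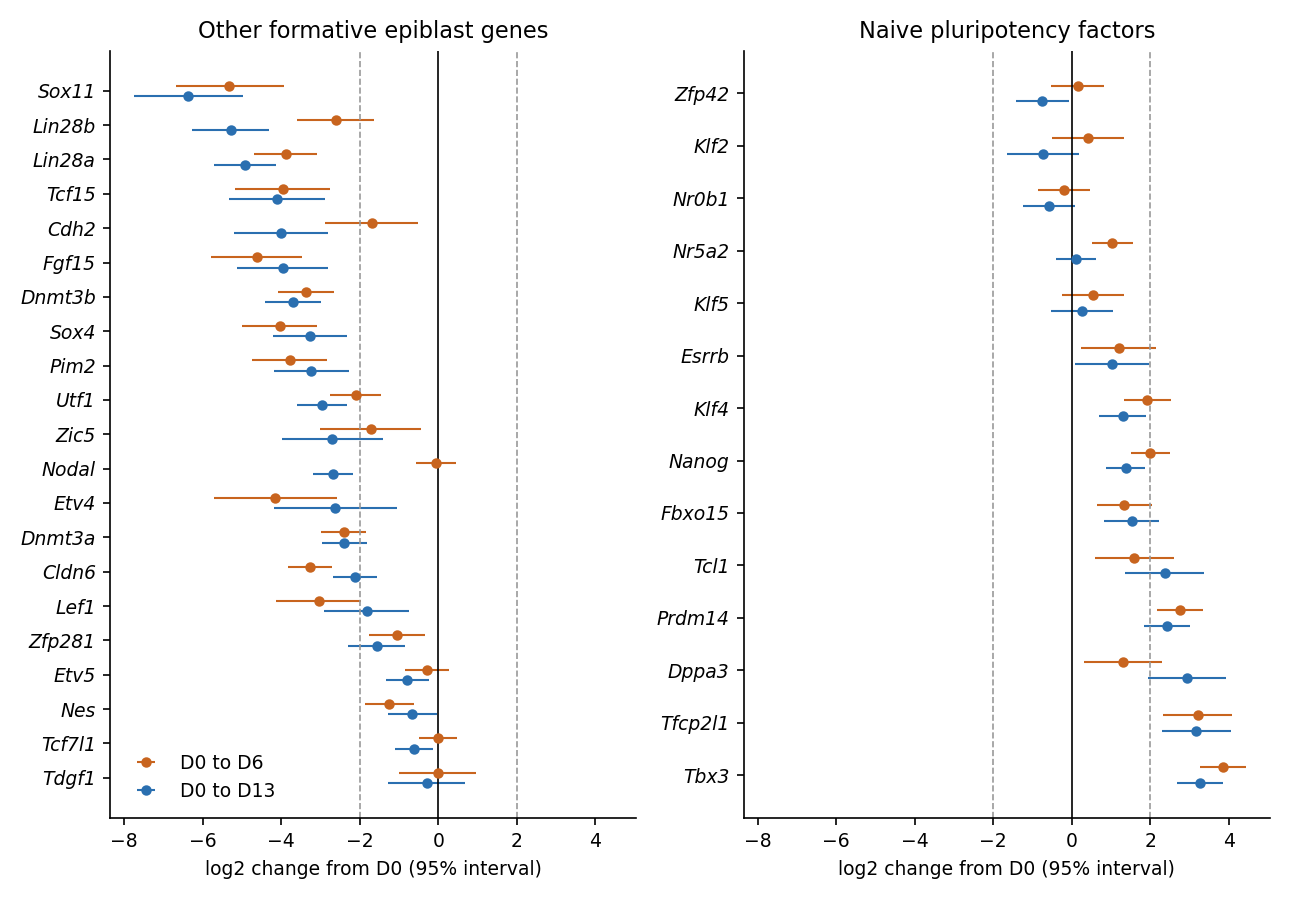
Log2 change from D0 to D6 and from D0 to D13, with 95% intervals from limma, of 21 other formative epiblast genes and 14 naive pluripotency genes, with dashed lines at 4-fold. The epiblast genes extend to the left as far as −6.36 for Sox11, and the naive genes to the right as far as 3.85 for Tbx3.

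Of 15 genes listed and measured for the FGF and ERK pathway, 6 were lower past 4-fold from D0 to D6 and 9 from D0 to D13, against 3.9% and 6.01% of all genes, with a median log2 change of −1.99 and −2.35. Not all were lower: Fgf4 rose from D0 to D6 as given above, and the receptor gene Fgfr4 rose 3.64-fold from D0 to D13 (adjusted p = 0.012, limma). Etv5, also on the epiblast list, had a difference of −0.29 from D0 to D6 (adjusted p = 0.44, limma). It fell 1.73-fold from D0 to D13 (adjusted p = 0.03, limma). The receptor gene Fgfr1 had differences of 0.32 and −0.31 in these comparisons (adjusted p = 0.3 and 0.26, limma). Spry4, a feedback inhibitor of receptor signalling, fell 151-fold from D0 to D6 (adjusted p = 0.00014, limma), and Dusp6 51.6-fold (adjusted p = 3.4e-05, limma). Egr1, an immediate early factor, fell 149-fold (adjusted p = 5.4e-05, limma), and the receptor gene Fgfr2 fell 32.7-fold (adjusted p = 0.00029, limma). Dusp4, another ERK phosphatase, fell 91.6-fold (adjusted p = 2.6e-05, limma) and then rose 12.2-fold from D6 to D13 (adjusted p = 0.014, limma). Etv4, an ETS factor that ERK induces and that is also on the epiblast list, fell 17.8-fold (adjusted p = 0.0027, limma) and had a difference of 1.53 in the second step (adjusted p = 0.21, limma). The 2 genes higher past 4-fold from D6 to D13, Dusp4 and Fos, were 0 without D13 replicate 1 and 1 without D6 replicate 2.

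Of 14 naive pluripotency genes, 4 were higher past 4-fold from D0 to D6 (Nanog, Tfcp2l1, Tbx3 and Prdm14) and 5 from D0 to D13, against 5.91% and 7.45% of all genes, and none was lower past 4-fold. Tbx3 rose 14.4-fold from D0 to D6 (adjusted p = 3.4e-05, limma) and Prdm14, which represses Dnmt3b and FGF signalling in naive cells, 6.79-fold (adjusted p = 0.00016, limma). Of 6 core pluripotency genes, Utf1 and Lin28a were lower past 4-fold from D0 to D6 and from D0 to D13, against 3.9% and 6.01% of all genes. Both are also on the epiblast list and were counted there. Zfp42 (Rex1), which serves as a naive reporter, had a difference of 0.15 from D0 to D6 (adjusted p = 0.78, limma). From D0 to D13 the difference of Zfp42 was −0.75 (95% interval −1.43 to −0.072, adjusted p = 0.072, limma). Those of the naive genes Klf2 and Nr0b1 were −0.73 and −0.58 (adjusted p = 0.18 and 0.14, limma). From D6 to D13 the median log2 change of the 14 naive genes was −0.36, and none was called. Pou5f1, expressed in both states, had differences of −0.12 and 0.038 from D0 to D6 and from D0 to D13 (adjusted p = 0.81 and 0.92, limma). The 6 epiblast members summed to 245 and 272 CPM at D0, 69.3 and 79.1 CPM at D6, and 77.6 and 68.1 CPM at D13. The 14 naive genes summed to 1390 and 2630 CPM at D0, 4700 and 4990 CPM at D6, and 4060 and 4320 CPM at D13.

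Markers of other cell types were summed in the same samples. Neural markers (5 measured of 12 listed, among them Nes, Tubb3 and Sox1) summed to 245 and 184 CPM at D0, 113 and 132 CPM at D6, and 101 and 107 CPM at D13. Trophoblast markers (6 of 10) went from 211 and 183 CPM to between 99.6 and 116 CPM in 2i+vitC, and fibroblast markers (3 of 8) from 29.7 and 10.1 CPM to between 4.86 and 5.62 CPM. Primitive endoderm markers (6 of 10) were between 414 and 536 CPM in all samples. The neural, trophoblast and fibroblast sums were thus higher in serum, as the epiblast members were, and their part in the members' changes was not tested. Nes, also on the list of other epiblast genes, made up 142 and 91.7 CPM of the neural sum at D0 and 73.2 and 70.8 CPM at D13. Single markers did not all follow the sums. From D0 to D13, 2 of the 6 trophoblast markers fell at any fold, against 21.8% of all genes, and the median log2 change of the 6 was −0.012. In the same comparison, 3 of the 5 neural and 2 of the 3 fibroblast markers fell, while the neural marker Sox1 rose. Primitive streak genes were measured for 6 of 14 listed. From D0 to D6 the Wnt target Sp5 was higher and Lefty1, a Nodal antagonist, lower past 4-fold. Past 4-fold in the same comparison, 3.9% of all genes were lower. So were 1 of the 5 neural markers (Neurod1), 2 of the 6 trophoblast markers (Krt8 and Krt18) and 2 of the 6 primitive endoderm markers (Dab2 and Col4a1). The main limma fit called 0 of the 3 fibroblast markers, all 3 of which had an unadjusted p under 0.05. With voom weights, a replicate block or only the 2 days compared, 1 fibroblast marker was called.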

How the data were processed

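RNA-seq of J1 ES cells was analysed at D0 (serum), D6 and D13 (2i+vitC), with 2 biological replicates per day. Libraries were made from DNase-treated RNA with a stranded mRNA kit. Per the labels, TopHat2 2.0.6, HTSeq 0.6.1 and Bowtie 1.0.0 were used with mm10. According to the methods of the study, reads of genes and of transposon families were combined, scaled by TMM and converted with voom. The authors deposited the resulting log2 CPM for 12626 genes and 302 transposon families in each sample.

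Each value corresponded to whole reads plus 0.5 times a constant for its sample (100% of the genes under 1000 reads, within 0.1 read), which gave 73230745 to 83688345 gene reads. The log2 values of all 12928 features were fitted with limma 3.58.1 (R 4.3.3), with a mean per day, all 6 samples and a mean-variance trend. Calls needed a change past 4-fold and an adjusted p under 0.05 (Benjamini-Hochberg over all features). The voom weights were not used here except in an alternative computed from the recovered reads. P-values rest on 2 replicates per day, and an exact two-sided test of a single gene with 2 against 2 cannot go below 0.333. The fit was tested on simulated data.

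The members, the gene lists and the rule for named genes (from each list the 5 with the largest change among those called and up to 3 of the most abundant that were not, family members, and the 3 nearest genes by course) were chosen with earlier results of these data known. Dnmt3a, Dnmt3b, Cldn6 and Lef1 fall outside that rule and were picked after their values were seen. Fgfr4 and Tcf7l1 also fall outside it. In addition, 1 gene was taken out of the lists and is not reported here. Gene lengths and positions were taken from GENCODE vM21. Tables were made with Python 3.11.15 (pandas 2.3.3). Alternatives were voom weights, no trend, a replicate block, only the 2 days compared, leaving out each sample, a minimum of 10 reads in 2 samples, log2(CPM + 1), median centring, genes only, a 2-fold limit and an adjusted p of 0.01.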

Additional observations from a re-analysis of the deposited data

How the results depend on the processing

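All 6 members kept the direction of every change under all alternatives, except that the D6 to D13 difference of Sall2 ran from −0.41 to 0.049 and was above 0 without D13 replicate 1. With a 2-fold limit, the members called rose from 3 to 5 from D0 to D6 and from 1 to 5 from D0 to D13. With an adjusted p under 0.01, the members that passed at any fold from D0 to D6 went from 5 to 3. Those whose first step differed from the second went from 3 to 1. On log2(CPM + 1), the D0 to D6 change of Sox3 was −1.84, short of 4-fold. Leaving out each sample in turn, the members called were 2 to 3 from D0 to D6, 0 for D6 to D13 and 1 to 3 for D0 to D13. The D0 to D6 log2 change then ran from −1.68 to −0.75 for Zic2 and from −1.93 to −0.98 for Sall2. The first change minus the second ran from −3.39 to −2.43 for Otx2 and from −6.68 to −4.21 for Sox3.

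The deviations of same-numbered samples correlated over genes with r of −0.13 (D0 and D6), 0.329 (D6 and D13) and 0.137 (D0 and D13), so the numbers went together for D6 and D13 and not for D0 and D6, and nothing in the labels says what a number shares. With the replicate block, 1 member was called from D6 to D13 (Sox3, log2 change 2.33, adjusted p = 0.025, limma) and 2 passed at any fold, Sox3 and Foxd3 (log2 change −1.18, adjusted p = 0.037, limma). Among the other lists from D0 to D6, the neural call was lost without D0 replicate 1 or D6 replicate 1, the core genes called were 1 without D6 replicate 1, and the primitive endoderm markers called were 1 without D0 replicate 2 or D6 replicate 1. The primitive streak genes called were 1 without D0 replicate 1, D0 replicate 2 or D6 replicate 2. The fibroblast markers called were 2 without D0 replicate 2, and 1 without D6 replicate 2, D13 replicate 1 or D13 replicate 2. With 2 replicates per day, the wide spread at D0 limits the precision of each fold.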
